A study of Mus musculus with 8 samples.

Results

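The 6 genes described here are Mt3, Mfap4, Heg1, Lgals1, Plin3 and Crip1, which encode a metallothionein, an extracellular microfibril protein, a membrane receptor, a lectin, a lipid droplet protein and a LIM-domain protein. They were measured in cells of the newborn mouse cerebral cortex. For each gene 1 probe could be matched, 6 of the 33012 gene probes on the array and 6 of the 311 genes whose probe could be given a symbol. Any probe of these genes under another identifier would have been missed. Of these probes, 5 carry a RefSeq transcript of the gene (Mt3 NM_013603.1, Mfap4 NM_029568.1, Lgals1 NM_008495.1, Plin3 NM_025836.1 and Crip1 NM_007763.1). The Heg1 probe carries the cDNA accession BC038614.1, which the reference table of assembly GRCm38.p6 lists as a synonym of Heg1. All 6 were chosen because their signal was lower in GFP+ than in GFP- cells, so this difference is given as a description, with no test.

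Cells of the cerebral cortex of GAD67-EGFP+/- mice at P0, the day of birth, were sorted by flow cytometry into a GFP+ and a GFP- fraction. All mice carried the EGFP allele in the heterozygous state, so both fractions share this genotype, and GFP marks cells in which the gene of GAD67 is active. GAD67 is the enzyme by which inhibitory neurons form GABA from glutamate. The 4 GFP+ and 4 GFP- samples are biological replicates, numbered 1 to 4 in each fraction, and each was measured on its own array after amplification and digoxigenin labelling of the RNA. Whether a replicate is a single pup or a pool is not given in the sources used here. The GFP+ fraction is defined by its fluorescence alone, because no probe was matched to any of the 15 listed genes of GABAergic neurons. The GFP- fraction is what remained: it can hold excitatory neurons, progenitors, glia, vascular and meningeal cells and blood.

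Metallothioneins are small cysteine-rich proteins that bind zinc and copper, and Mt3 is the brain member of the family. Galectins bind sugars on cell surface proteins, perilipins coat the droplets in which cells store neutral lipid, and microfibrils are the scaffold of elastic fibres in the matrix around vessels and connective tissue. HEG1 is a receptor of endothelial cells that binds KRIT1 of the cerebral cavernous malformation complex. In brain tissue several of these genes, though not all, are mostly known from astrocytes, vessel walls, meninges and other non-neuronal cells. That assignment was not checked in these arrays: of 24 listed astrocyte and radial glia genes, 19 endothelial, 12 mural and 19 meningeal fibroblast genes, none had a named probe. The genes are therefore called by their names and not by a cell type.

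The start regions of Mt3, Heg1, Plin3 and Crip1, the 4 of the 6 genes matched in the RefSeq promoter table, are shown as the sequence context of genes that were low together in GFP+ cells. Each window is 300 bases, from 250 before to 50 after the annotated start, taken from RefSeq on GRCm38.p6 and read 5′ to 3′ on the gene's strand. Capitals mark matches on either strand to 6 short motifs, whose letters follow the sequences.
Mt3 promoter, chr8:94152357-94152656, strand +: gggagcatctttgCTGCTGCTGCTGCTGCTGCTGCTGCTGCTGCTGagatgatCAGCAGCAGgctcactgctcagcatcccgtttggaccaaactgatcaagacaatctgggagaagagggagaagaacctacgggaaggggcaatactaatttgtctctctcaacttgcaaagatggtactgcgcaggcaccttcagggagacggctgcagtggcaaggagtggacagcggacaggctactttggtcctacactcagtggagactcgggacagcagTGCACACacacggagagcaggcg
Heg1 promoter, chr16:33684216-33684515, strand +: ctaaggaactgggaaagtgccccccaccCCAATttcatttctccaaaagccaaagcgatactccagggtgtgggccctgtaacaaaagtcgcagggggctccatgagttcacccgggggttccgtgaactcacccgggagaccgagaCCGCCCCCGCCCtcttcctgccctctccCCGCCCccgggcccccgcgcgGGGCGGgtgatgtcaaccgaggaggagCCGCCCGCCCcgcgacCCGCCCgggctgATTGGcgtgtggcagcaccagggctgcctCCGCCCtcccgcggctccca
Plin3 promoter, chr17:56290462-56290761, strand -: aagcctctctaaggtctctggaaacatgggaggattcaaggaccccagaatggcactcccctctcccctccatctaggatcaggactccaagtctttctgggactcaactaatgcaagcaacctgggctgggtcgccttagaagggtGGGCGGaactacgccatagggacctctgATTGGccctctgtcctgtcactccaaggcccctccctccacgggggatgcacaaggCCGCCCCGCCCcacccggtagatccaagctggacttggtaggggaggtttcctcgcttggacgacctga
Crip1 promoter, chr12:113151762-113152061, strand +: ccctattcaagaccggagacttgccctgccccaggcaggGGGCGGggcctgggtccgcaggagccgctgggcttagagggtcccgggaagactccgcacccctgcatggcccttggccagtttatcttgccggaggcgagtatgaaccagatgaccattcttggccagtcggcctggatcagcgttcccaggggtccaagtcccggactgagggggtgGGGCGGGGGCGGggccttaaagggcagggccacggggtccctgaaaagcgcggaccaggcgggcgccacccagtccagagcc
The GC box was searched as the letters GGGCGG, which 35.7% of 32851 promoter windows hold. It matched 8 times in Heg1, 3 times in Plin3, 3 times in Crip1 and not in Mt3. The core of the metal response element, through which zinc induces some metallothionein genes, was searched in its forms TGCACNC, held by 12.6% of windows, and, as a separate motif, TGCGCNC, held by 15.4%. The first form matched 1 time in Mt3, after the annotated start, and in none of the other 3 windows, and the second form in none of the 4. A CTG repeat, searched as CTGCTGCTG, matched 10 times in Mt3 with matches overlapping each other, and 1.82% of windows hold it. The CCAAT box, searched as those 5 letters and held by 37.4% of windows, matched 2 times in Heg1 and 1 time in Plin3. The TATA box, searched as TATAAA and held by 13.6% of windows, matched none of the 4. The Heg1 and Crip1 windows were rich in CG steps, with 25 and 18 of them, against 9 in Plin3, 8 in Mt3 and a median of 7 over all windows. Their G and C content was 69.0% for Heg1, 68.3% for Crip1, 59.3% for Plin3 and 56.0% for Mt3, against a median of 52.7%. A match is a description of letters and not a site of binding.

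All 6 genes had lower signal in GFP+ cells, and no GFP+ array reached the level of any GFP- array for any of them. The values below are array signals on the log2 scale after quantile normalization over the 8 arrays, and a probe is called above background where its signal-to-noise score is at least 3. In limma (all tested probes, Benjamini-Hochberg adjusted p under 0.05) 6 of 6 were called lower, against 9.10% of 16875 tested probes, or 13.1% with the replicate number as a block. Groups that do not overlap in this direction were found at 11.1% of tested probes. Nothing is read from these counts, since the genes were chosen on this comparison. Over all tested probes the median GFP+ minus GFP- difference was 0.09 on the log2 scale. Of the called probes 37.1% were higher in GFP+ cells, against 26.4% with no scaling and 23.6% with scaling to kit control spots. In sorted pools of cells, fewer cells of a type and less RNA per cell cannot be told apart.

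Mt3, whose protein buffers zinc and copper in the brain, had the widest difference of the 4 genes that were above background in both fractions. Its log2 signals were 12.70, 11.95, 12.68 and 12.53 on the GFP+ arrays of replicates 1 to 4, against 16.16, 14.90, 16.57 and 16.19 on the GFP- arrays. Replicate 2 was the lowest array in both fractions, and the groups lay 2.20 apart at their closest. The means were 12.47 ± 0.35 in GFP+ and 15.96 ± 0.73 in GFP- cells (SD, n = 4 each), a difference of −3.49 ± 0.36 (SE), or 11.2-fold. Mt3 remained well above background in GFP+ cells, with signal-to-noise scores of 18.88 to 27.33, against 53.43 to 97.24 in GFP- cells. Within the pairs of replicates 1 to 4 the GFP+ signal was 9.12%, 12.9%, 6.72% and 7.93% of the GFP- signal, so a residual Mt3 signal was measured in every GFP+ sample.

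**Figure D1:**
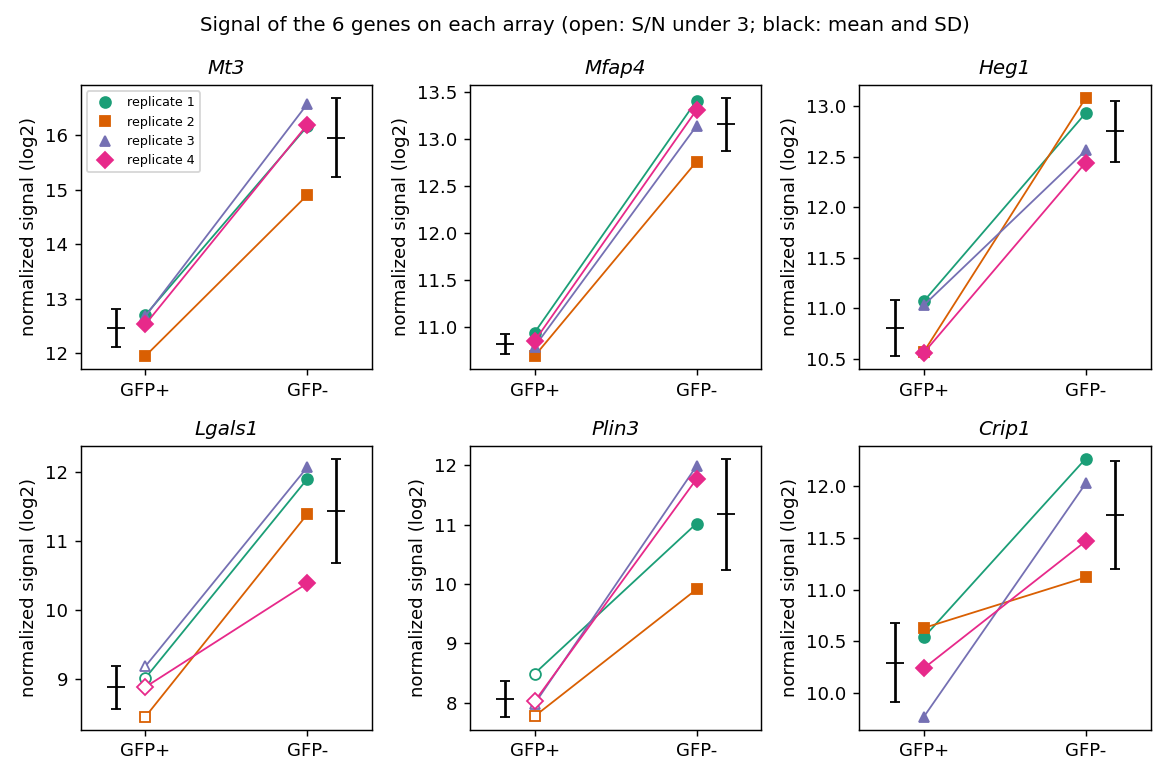
Normalized log2 signal of each gene on the 4 GFP+ (left) and 4 GFP- (right) arrays, with lines joining arrays of the same replicate number, open symbols where the signal-to-noise score was under 3, and black marks for the mean and SD of each fraction. Every line runs upward to GFP-, the GFP+ symbols of Lgals1 and Plin3 are open, and the line of Crip1 in replicate 2 is the flattest of the 24.

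Among the extracellular and surface proteins, Mfap4 was the most uniform. This gene encodes a fibrinogen-related glycoprotein of elastic microfibrils. Its log2 signals were 10.94, 10.69, 10.79 and 10.85 on the GFP+ arrays, against 13.41, 12.76, 13.14 and 13.31 on the GFP- arrays. The GFP+ arrays lay within 0.25 of each other, and no array of either fraction came near the other group. The means were 10.82 ± 0.10 in GFP+ and 13.16 ± 0.28 in GFP- cells (SD, n = 4 each), a difference of −2.34 ± 0.18 (SE), or 5.06-fold. Mfap4 stayed above background in GFP+ cells, with scores of 5.48 to 12.84, against 19.51 to 40.76 in GFP- cells.

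Heg1, the receptor gene of the endothelial junction complex, also stayed above background in both fractions. Its log2 signals were 11.07, 10.57, 11.03 and 10.56 on the GFP+ arrays, against 12.93, 13.08, 12.56 and 12.44 on the GFP- arrays. Replicate 2 was the highest GFP- array for Heg1, unlike for the other 5 genes, although with no scaling replicate 1 was higher. The means were 10.81 ± 0.28 in GFP+ and 12.75 ± 0.30 in GFP- cells (SD, n = 4 each), a difference of −1.94 ± 0.21 (SE), or 3.85-fold. Signal-to-noise scores were 6.22 to 13.37 in GFP+ and 23.78 to 46.66 in GFP- cells.

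Lgals1, the gene of galectin-1, was above background on 4 of 4 GFP- and 0 of 4 GFP+ arrays. Its log2 signals were 9.02, 8.46, 9.19 and 8.89 on the GFP+ arrays, against 11.90, 11.39, 12.07 and 10.39 on the GFP- arrays. Replicate 4 stood lowest among the GFP- arrays, with a signal-to-noise score of 3.52 there, against 13.57 to 27.71 on the other GFP- arrays. The GFP+ scores were 2.91, 1.82, 0.90 and −0.84, so that of replicate 1 was just short of the limit. Lgals1 was at least 5.85-fold lower in GFP+ cells. This value and that of Plin3 below equal the measured fold, because the GFP+ signals exceeded the lowest signal called above background on their arrays, and the spread between arrays is not covered. The GFP+ signal was 13.1% to 13.6% of the GFP- signal in replicates 1 to 3 and 35.3% in replicate 4. Without the pair of replicate 4 the difference was −2.95, against −2.55 ± 0.36 (SE) over all arrays.

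Plin3, which encodes a perilipin that also travels between cytosol and lipid droplets, was the other gene above background on 4 of 4 GFP- and 0 of 4 GFP+ arrays. Of the 13919 probes above background on all GFP- arrays, 1.90% were above it on no GFP+ array. The log2 signals of Plin3 were 8.49, 7.77, 7.98 and 8.02 on the GFP+ arrays, against 11.02, 9.91, 11.99 and 11.77 on the GFP- arrays. Its GFP+ scores ran from −1.67 to 0.62 and its GFP- scores from 6.20 to 19.83, with no array near the limit. Plin3 was at least 8.63-fold lower in GFP+ cells. The GFP- arrays of replicates 3 and 4 were higher than those of replicates 1 and 2, and the paired differences were −2.53, −2.14, −4.01 and −3.75 in replicates 1 to 4.

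**Figure D2:**
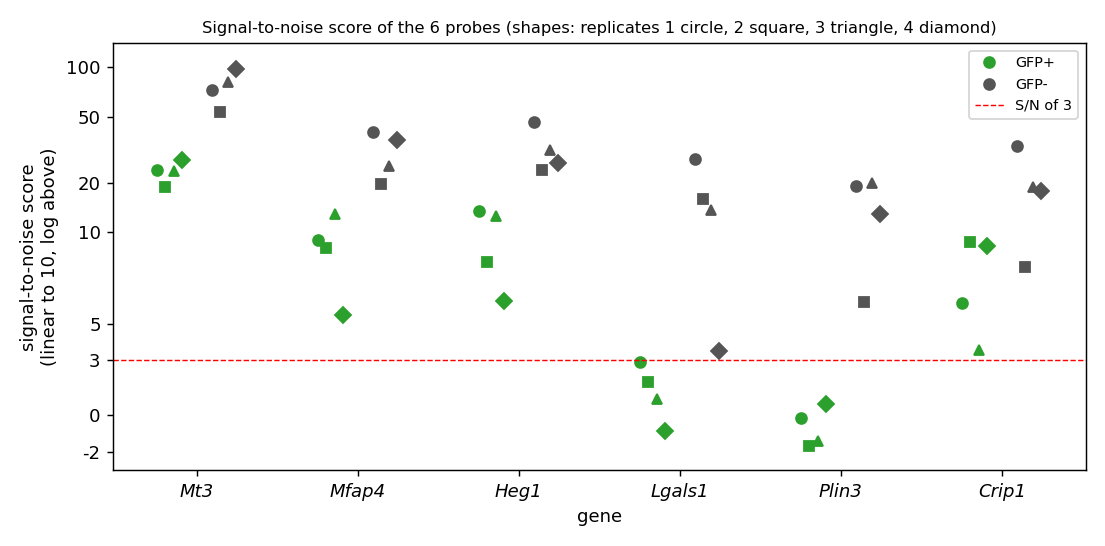
Signal-to-noise score of each gene on the GFP+ (green, left) and GFP- (grey, right) arrays, on an axis that is linear up to 10 and logarithmic above, with symbol shapes for the replicates and a dashed line at the limit of 3. Lgals1 and Plin3 lie below the line on all GFP+ arrays, Lgals1 just above it at 3.52 in GFP- replicate 4, and the Crip1 scores of the fractions overlap.

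Crip1, a cysteine-rich protein with a LIM zinc-binding domain, had the smallest difference of the 6. Its log2 signals were 10.54, 10.63, 9.77 and 10.24 on the GFP+ arrays, against 12.27, 11.12, 12.03 and 11.47 on the GFP- arrays. The groups were 0.49 apart at their closest, between the replicate 2 arrays, where GFP+ was highest and GFP- lowest after quantile normalization. The means were 10.29 ± 0.38 in GFP+ and 11.72 ± 0.52 in GFP- cells (SD, n = 4 each), a difference of −1.43 ± 0.30 (SE), or 2.69-fold. The GFP+ signal was 30.1%, 71.0%, 20.9% and 42.5% of the GFP- signal in replicates 1 to 4. Crip1 was above background on all 8 arrays, with scores of 3.57 to 9.46 in GFP+ and 8.08 to 33.52 in GFP- cells, which overlap. The limma call of Crip1 was lost without the pair of replicate 1, 3 or 4, with differences of −1.31, −1.15 and −1.54.

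The GFP+ signal that remained differed in size between the genes. As a share of the GFP- signal it was 8.90% for Mt3, 11.6% for Plin3, 17.1% for Lgals1, 19.8% for Mfap4, 26.0% for Heg1 and 37.1% for Crip1. Between the lowest and the highest pair it ran from 18.1% to 23.8% for Mfap4 and from 17.5% to 34.6% for Heg1. It ran from 6.20% to 22.7% for Plin3, from 13.1% to 35.3% for Lgals1 and from 20.9% to 71.0% for Crip1. For Lgals1 and Plin3 these shares are set by signals under the limit of detection. Neighbours in this order have overlapping pair ranges, with Mt3 from 6.72% to 12.9%, so their order is not settled by 4 pairs.

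For comparison, alpha-globin Hba-a1, the only erythrocyte gene of 10 listed that had a named probe, had log2 signals of 15.13, 14.64, 14.41 and 14.11 on the GFP+ arrays, against 19.39, 19.05, 19.45 and 19.40 on the GFP- arrays. Its GFP+ share was 3.72% (2.56% to 5.23% over the pairs), below that of each of the 6 genes in the mean. The signal of this red cell gene thus moved in the same direction as the 6 genes, and its part in their differences was not tested. Of 16 listed genes of excitatory neurons and progenitors, 3 had a named probe, all transcription factors. Their GFP+ share was 3.48% for Lhx2 (2.08% to 8.63% over the pairs), 7.87% for Zbtb18 and 33.3% for Pou3f3, which spans much of the range of the 6 genes. The GFP+ scores of Lhx2 went down to 3.14, near the limit of 3.

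**Figure D3:**
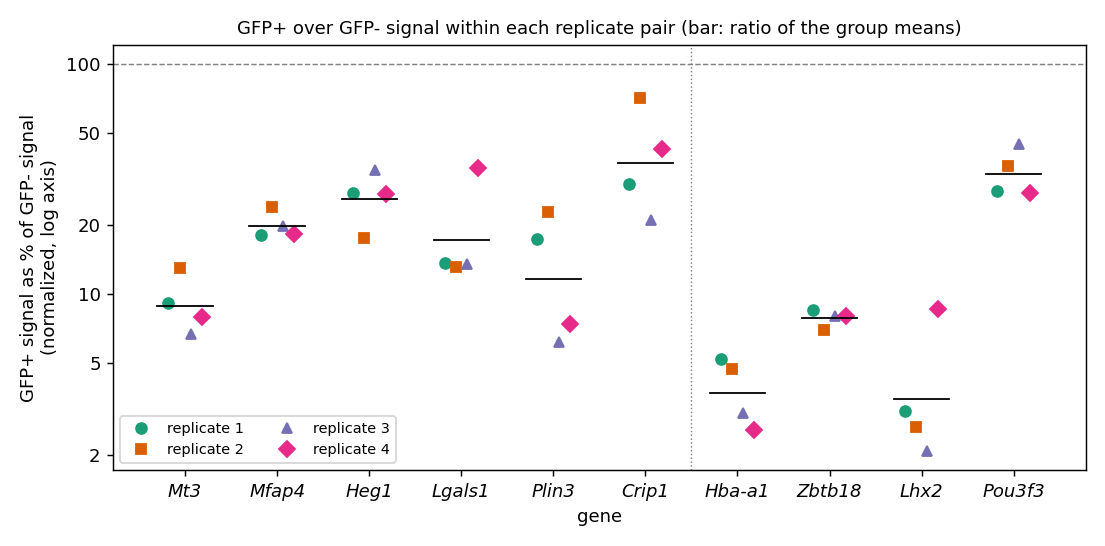
GFP+ signal as a percentage of GFP- signal (normalized, logarithmic axis) within each replicate pair, for the 6 genes left of the dotted line and for Hba-a1, Zbtb18, Lhx2 and Pou3f3 right of it. Bars are the ratios of the group means on the log2 scale and the dashed line is 100%. Mfap4 spans 18.1% to 23.8%, while Crip1 spans 20.9% to 71.0%.

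Few relatives of the 6 genes were named on the array. The lists of metallothioneins (4 genes), perilipins and lipid droplet genes (13), cysteine-rich LIM proteins (6), microfibril and elastic fibre genes (22) and the HEG1 and cavernous malformation complex (11) had no named probe besides the gene described here. Of 11 galectin genes, Lgals2 and Lgals7 also had probes. Lgals7, an epithelial galectin, had log2 signals of 12.97, 12.86, 12.32 and 11.99 on the GFP+ arrays, against 12.24, 11.67, 12.49 and 12.10 on the GFP- arrays. These groups overlapped, and the difference was 0.41 ± 0.27 (SE; limma adjusted p = 0.398), higher in GFP+ cells in 2 of 4 pairs. Lgals2, a galectin of the gut, was not well above background on any of the 8 arrays and was not tested.

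The GFP- arrays differed from each other most at Plin3, Lgals1 and Mt3. Their GFP- signals spanned 4.25-fold, 3.21-fold and 3.19-fold between the lowest and the highest array, against 2.22-fold for Crip1 and 1.56-fold each for Mfap4 and Heg1. The SD over the 4 GFP- arrays was 0.94 for Plin3, 0.76 for Lgals1, 0.73 for Mt3, 0.52 for Crip1, 0.30 for Heg1 and 0.28 for Mfap4 on the log2 scale, against a median of 0.35 over all tested probes. In that order, 93.9%, 88.2%, 86.9%, 72.8%, 40.9% and 37.1% of tested probes had a smaller SD.

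These deviations were shared by some of the genes and not by others. GFP- replicate 2 was the lowest array of its fraction for Mt3, Mfap4, Plin3 and Crip1, by 1.05, 0.39, 1.27 and 0.60 below the mean on the log2 scale. These 4 of 6 genes were lowest there under quantile, median and kit control scaling and with no scaling. The kit control scaling used the reverse transcription control spots only. The in vitro transcription control spots of GFP- replicate 2 were the brightest, at 17.12 on the log2 scale, against 13.87 to 15.44 on the other arrays. What this has to do with the low values was not tested. Heg1 was 0.33 above its mean on the same array, and Lgals1 was 0.05 below. Lgals1 fell instead to 1.05 below its mean in GFP- replicate 4, where Plin3 was 0.60 above. Hba-a1 was lowest in GFP- replicate 2 as well, at 19.05, except under median scaling, which put replicate 4 lowest, and its part in the low values there was not tested. The highest GFP- array depended on the scaling: it was that of replicate 3 for Mt3 and Lgals1 after quantile normalization and that of replicate 1 with no scaling. With 4 arrays a fraction, correlations between the genes within the GFP- cells were not computed.

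**Figure D4:**
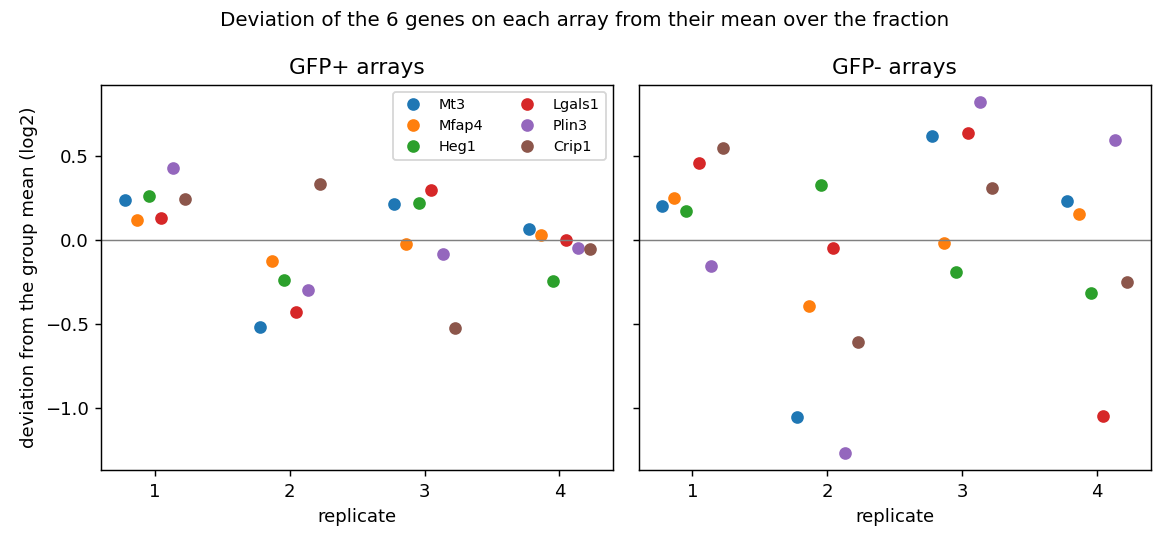
Deviation of each gene on each array from its mean over the fraction (log2), for GFP+ arrays (left) and GFP- arrays (right), with 1 colour per gene. In GFP- replicate 2 the values spread from 1.27 below the mean (Plin3) to 0.33 above it (Heg1), and the GFP+ deviations are smaller than the largest GFP- ones.

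Same-numbered arrays deviated in the same direction in 17 of 24 combinations of gene and replicate, or 70.8%, against 70.1% over all tested probes. The 6 genes were thus near the share of all probes. For Mt3 and Mfap4 it held in 4 of 4 replicates, for Heg1 and Crip1 in 2 of 4 and for Plin3 in 1 of 4. For Lgals1 it held in replicates 1 to 3, and in replicate 4, counted among the 17, its GFP+ signal lay almost at the mean of the fraction. Whether the replicate number moved a gene's level in both fractions was tested with limma (F test with the fraction as a term, over 16875 probes). The genes were not chosen on this comparison, but such movement adds to the spread around the difference they were chosen on. None of the 6 passed, with adjusted p from 0.0975 for Mt3 to 0.639 for Crip1, and Mt3 alone had an unadjusted p under 0.05, of 0.0181. Over all tested probes 0.409% passed. For Plin3 and Lgals1 the F test took in GFP+ signals that were above background on no array.

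The hybridization control spots were brighter on the arrays of replicates 3 and 4, at 17.13 to 17.35 on the log2 scale, than on those of replicates 1 and 2, at 15.95 to 16.27. Each of these sets holds both fractions, so a difference between them is not part of the difference the genes were chosen on. It does add to the spread around that difference, so it is not fully independent of the choice. In limma with the fraction as a term, 10.3% of tested probes differed between the sets and none of the 6 genes did. The differences, replicates 3 and 4 minus replicates 1 and 2, were 0.65 ± 0.39 for Plin3 and 0.57 ± 0.32 for Mt3 (SE; limma adjusted p = 0.315 and 0.280). The other 4 lay between −0.26 and 0.07, with limma adjusted p of 0.393 to 0.939. For Plin3 and Lgals1 these values average over GFP+ signals that were above background on no array, which limits what the test could find. The 10.3% is itself unsettled, since 0 probes passed without the pair of replicate 1, 2 or 4, and at most 1056 without any 1 array.

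The size of the GFP+ minus GFP- difference was also compared between the sets, as an interaction in limma. No probe of 16875 passed an adjusted p of 0.05 in limma, and 703 had an unadjusted p under 0.05, or 4.17%. Plin3 was among those 703: its difference was −3.88 in replicates 3 and 4 alone and −2.34 in replicates 1 and 2 alone, an interaction of −1.55 ± 0.58 (SE; unadjusted p = 0.0343, limma adjusted p = 1.00). The GFP+ signals of Plin3 were not well above background in either set, so these differences are measured values with the GFP+ level known only as a bound. The other 5 had interactions of −0.63 to 0.71, with standard errors of 0.36 to 0.77, so sizeable differences between the sets would not have been seen. Within replicates 1 and 2 alone 4 of the 6 genes were called lower, without Plin3 and Crip1, against 4.44% of tested probes. Within replicates 3 and 4 alone 4 were called, without Lgals1 and Crip1, against 4.85%. Nothing is read from these counts either, as the genes were chosen on the same comparison. All 6 were lower in GFP+ cells in both sets, which the gap between their groups fixed in advance.

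The named genes with the most similar pattern over the 8 arrays were found by Pearson's r of the normalized log2 signal among 160 tested genes with a symbol. The arrays form 2 clusters, the fractions, so r is high for genes that separate them. It also takes in deviations shared within a fraction, and it is given with no test. For Mt3 the 3 nearest were Tmem254a, a transmembrane protein gene (r = 0.990), Plin3 (0.987) and Mfap4 (0.984). For Mfap4 they were Hba-a1 (0.989), Mt3 and Zbtb18 (0.979), and for Heg1 Hba-a1 (0.965), Zbtb18 (0.957) and Mfap4 (0.948). Lgals1 was nearest to the histone gene H2bc18 and to Bcl2a1b, a BCL2 relative of blood cells (both 0.954), then to Heg1 (0.944). Plin3 was nearest to Mt3, then to the cell polarity gene Llgl1 (0.984) and Tmem254a (0.983). Crip1 was nearest to Cebpb, a bZIP factor gene (0.915), then Mfap4 (0.906) and Hba-a1 (0.899). Tmem254a and Llgl1 shared the pattern with smaller differences, of −1.04 ± 0.19 and −0.75 ± 0.16 (SE). These are given without a test because r, which takes in the difference between the fractions, had selected them. Ordered by their measured difference, Mt3 stood at place 4 from the lowest of the 160 genes, Mfap4 at 10, Heg1 at 12 and Crip1 at 17. In that order, 1.13%, 3.07%, 4.40% and 6.68% of all tested probes had a lower difference. Nothing is read from these places, since the genes were chosen on this difference. Plin3 and Lgals1, whose GFP+ signals were not well above background, are given no place.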

How the data were processed

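Each of the 4 deposited array tables holds 1 GFP+ and 1 GFP- array with 33012 gene probes and 303 control rows. Per the file headers, the brightness of a probe was deposited as intensity on a linear scale, unscaled between arrays (array medians 662 to 1079). A signal-to-noise score and quality flags, kept as other codes, were deposited for each spot, per the file headers. The deposited series matrix holds a ratio, which equalled the signal over the array's median of probes with a flag under 5000. Total RNA was reverse-transcribed and amplified by in vitro transcription, per the labels' protocols, which can alter relative signals. Array type, scanner and genome build: not given in the sources used here.

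Signals were set to at least 1, log2 transformed and quantile normalized. The 16875 probes (all 6 genes included) that reached a score of 3 on 4 or more of the 8 arrays were tested with limma 3.58.1 in R 4.3.3 (lmFit, eBayes, no block; Benjamini-Hochberg), and the fits were tested on simulated data. Symbols came from RefSeq transcripts (311 probes) or synonyms (6) of GRCm38.p6. After subtraction of each fraction's mean, GFP+ and GFP- arrays of equal number correlated at 0.517, 0.455, 0.347 and 0.441, and the 12 unequal combinations at −0.389 to 0.162. The replicate number was therefore taken to pair the fractions, and a fit with it as a block was run beside the fit without it. The fit without it gives every printed SE and adjusted p, except those of the F test and where the block is named. The number of arrays limits the precision.

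The genes, the 16 gene lists and the tests were chosen with earlier results of these data known. Named genes are the 6 members, listed genes with a probe and the 3 genes nearest to each member by Pearson's r. Scaling, filter, floor, flags, block, set and left-out arrays were varied. The F test on replicate number was added later.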

Additional observations from a re-analysis of the deposited data

Results flagged for a closer look

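In 24 sets of 4 arrays, for the 6 genes and the 6 listed genes set beside them, 2 sets had an array far from the other 3, and chance gives about 1 in 20. No set of the 6 genes was among them. Hba-a1 in GFP- replicate 2 read 19.05 on the log2 scale, with a gap of 0.833 of the range of its group. Pou3f3 in GFP+ replicate 2 read 13.19, with a gap of 0.883.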

How the results depend on the processing

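The 6 differences between GFP+ and GFP- cells stayed negative in all 153 recomputed values, and 151 moved by less than 1 SD of the replicates. The other 2 were those of Plin3, −2.34 in replicates 1 and 2 alone and −3.88 in replicates 3 and 4 alone. The genes were chosen for lower signal in GFP+ cells and their groups did not overlap. Nothing is therefore read from the constant sign. With the replicate number as a block 6 of 6 genes were called lower and the number of probes called lower was 2213, against 1535 without it. The block changed no call of the 6 genes. The number of probes called lower was 950 with a score of at least 3 on all 8 arrays, which leaves out Lgals1 and Plin3 and tests fewer probes. It was 749 in replicates 1 and 2 alone and 819 in replicates 3 and 4 alone, with fewer arrays. Probes called between the sets of replicates numbered 1730, against 597 with no scaling, 278 with kit control scaling and 197 with no filter, and 0 to 1056 when an array or a pair was left out. The causes were not tested, and these fits took paired arrays as independent. Higher calls made up 49.2% of the 1730, against 19.3% with median scaling and 73.0% with kit control scaling. No set or interaction value of the 6 genes passed in any of 180 recomputed values. With the replicate block and median scaling together, chosen after seeing the data, 1954 probes were called lower and 2202 higher. Signal under the limit of detection in GFP+ cells limits Lgals1 and Plin3.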
